A study of Mus musculus with 4 samples.

Results

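The 7 genes described here, *Foxf1*, *Foxf2*, *Fendrr*, *Foxl1*, *Osr1*, *Osr2* and *Barx1*, are known as regulators of the splanchnic mesenchyme of the foregut. They were taken by gene name from 46983 listed genes, and 6 of the 7 passed the filter on low values, a mean of at least 1 TPM (a length-scaled transcript level with a fixed sum per library) over the 4 libraries, which 16972 genes passed. RNA-seq was performed at E10.5 (32 to 35 somites) on dissected mouse larynxes, from 2 *Shh*-/- pools, numbered 1 and 2, and 2 WT pools, numbered 4 and 6, of 3 larynxes each. Mutants carried the germline *Shh*tm1amc null allele kept on the Swiss Webster background, and WT embryos were Swiss Webster. The sample labels write the mutant genotype as *Shh*+/-, whereas the series description and the study's methods give *Shh*-/-, which is used here. The loss of *Shh* was not limited to the larynx, and each library averages 3 embryos.

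Splanchnic mesoderm is the layer that wraps the gut tube and gives rise to the connective tissue and smooth muscle of the foregut organs, including the airway. The foregut epithelium secretes Sonic hedgehog, which binds the receptor PTCH1 on the mesenchyme and releases SMO to activate the GLI transcription factors. *Foxf1*, *Foxf2* and *Foxl1* encode forkhead transcription factors known as Hedgehog (HH) responsive genes of gut mesenchyme, and *Fendrr* is a long non-coding RNA transcribed away from *Foxf1*. *Osr1* and *Osr2* encode zinc finger factors of the odd-skipped family, and *Barx1* encodes a homeobox factor best known from stomach mesenchyme. The comparison asks how RNA levels of these genes differ in the larynx without SHH.

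The *Fendrr* and *Foxf1* starts lie 1275 bases apart on opposite strands of chromosome 8, so that the sequence before *Fendrr* is shared intergenic sequence of the pair. Promoter sequence could be matched for 3 of the 7 genes in the RefSeq table (GRCm38.p6, the mm10 build). All 3 are shown. Their genes differed in opposite directions, *Fendrr* and *Foxf2* lower and *Barx1*, short of the test's threshold, higher in *Shh*-/- pools. Each sequence runs 5′ to 3′ on the strand of its gene up to the base before the annotated start, and capitals mark the single match to the forkhead motif.
Fendrr (chr8:121083111-121083360, minus strand): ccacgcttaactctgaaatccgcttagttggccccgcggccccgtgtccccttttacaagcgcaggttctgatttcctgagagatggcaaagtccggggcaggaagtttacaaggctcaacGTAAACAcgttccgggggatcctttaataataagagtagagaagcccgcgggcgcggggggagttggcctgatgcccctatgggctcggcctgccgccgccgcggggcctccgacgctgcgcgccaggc
Foxf2 (chr13:31625566-31625815, plus strand): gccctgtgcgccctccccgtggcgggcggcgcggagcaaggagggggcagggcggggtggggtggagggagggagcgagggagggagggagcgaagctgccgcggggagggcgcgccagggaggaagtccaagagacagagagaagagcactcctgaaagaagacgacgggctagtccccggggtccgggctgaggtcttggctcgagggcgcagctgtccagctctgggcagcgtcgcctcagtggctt
Barx1 (chr13:48662786-48662997, plus strand): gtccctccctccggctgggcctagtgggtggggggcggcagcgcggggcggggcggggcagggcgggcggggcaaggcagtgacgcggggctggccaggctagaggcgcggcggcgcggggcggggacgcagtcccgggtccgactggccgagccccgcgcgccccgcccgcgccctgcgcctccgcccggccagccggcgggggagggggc
The forkhead motif, TGTTTAC or its reverse complement GTAAACA, occurred once, 129 bases before the *Fendrr* start as GTAAACA, and 3.17% of 32851 promoters in the table held it on either strand. The GLI motif, TGGGTGGTC or its reverse complement GACCACCCA, was found in 0.225% of these promoters and in none of the 3 sequences. GC content was 62.0% before *Fendrr*, 71.6% before *Foxf2* and 85.4% before *Barx1*, against a median of 52.4% over all promoters. The *Barx1* sequence holds 212 bases because the annotated start in the files lies upstream of the RefSeq start.

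**Figure D1:**
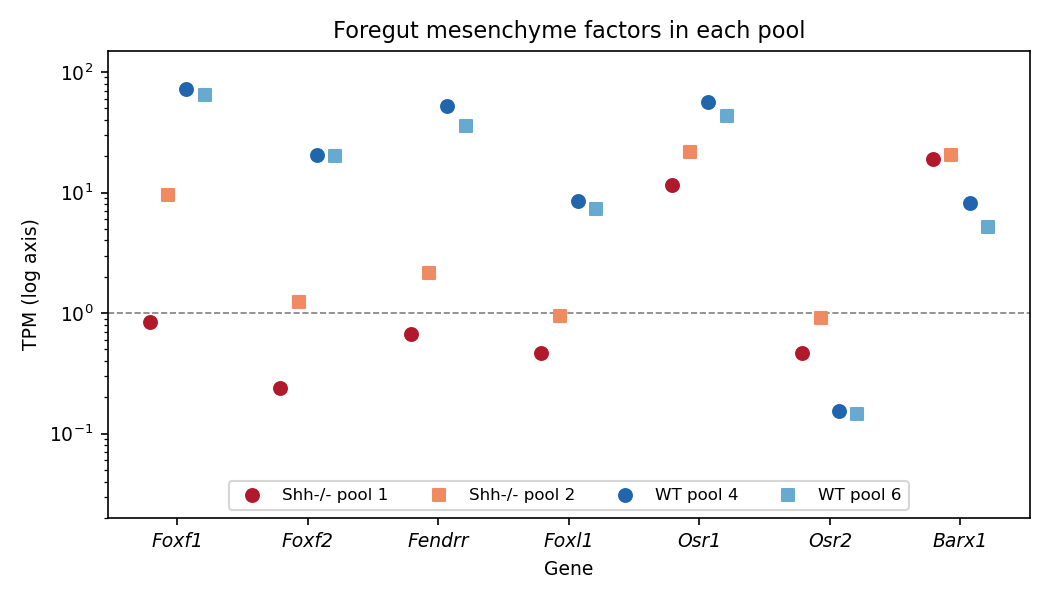
TPM of the 7 genes in each pool, on a log axis, with 1 point per library and a dashed line at 1 TPM. Both *Shh*-/- points lie below both WT points for *Foxf1*, *Foxf2*, *Fendrr*, *Foxl1* and *Osr1*, and above them for *Osr2* and *Barx1*.

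In WT larynx, *Foxf1* was the most abundant of the 7 RNAs per length at 68.4 ± 5.41 TPM (mean ± SD, n = 2, as for all means here). *Osr1* at 49.9 ± 9.24 TPM and *Fendrr* at 44.1 ± 11.7 TPM followed, and their pools overlapped. *Foxf2* came next at 20.2 ± 0.239 TPM. *Foxl1* at 7.84 ± 0.829 TPM and *Barx1* at 6.69 ± 2.18 TPM also overlapped, and *Osr2* lay below 1 TPM in both WT pools. In *Shh*-/- larynx the order was different, since *Barx1* at 19.7 ± 1.14 TPM and *Osr1* at 16.7 ± 7.25 TPM stood highest, with overlapping pools.

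Of the 6 tested genes, *Foxf2*, *Fendrr* and *Foxl1* fell at an adjusted p under 0.05 by limma with Benjamini-Hochberg adjustment over all 16972 genes, where 0.165% of genes were called lower. None of the 6 was called higher by limma, against 0.56% of all genes. All 6 had an unadjusted limma p under 0.05, 5 lower and 1 higher. Of the 16972 genes, 4202 had such a p, 1225 lower and 2977 higher. Pools of the groups did not overlap for any tested member. All pools of one group also lay below those of the other for 22.7% of genes and above for 38% of genes. The median log2 fold change of the 6 was -3.03, beside 0.08 over all tested genes. Fold changes are *Shh*-/- minus WT on the log2(TPM + 1) scale, which understates the change of low genes. In these bulk samples, fewer cells of a type and less RNA per cell cannot be told apart.

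*Foxf2*, which encodes a forkhead factor of gut and palate mesenchyme, was measured at 0.241 TPM in *Shh*-/- pool 1 and 1.24 TPM in *Shh*-/- pool 2, and at 20.3 TPM in WT pool 4 and 20.004 TPM in WT pool 6. The WT pools were nearly equal and both mutant pools lay far below them. Its mean was 27.3-fold lower in *Shh*-/- larynx, and the log2 fold change was -3.67 (SE 0.32, 95% interval -4.49 to -2.85, limma adjusted p = 0.0383). The *Shh*-/- values rest on about 5 and 61 reads, against 912 and 936 in WT. The gene lies on chromosome 13 (mm10, 31625816 to 31631403).

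*Fendrr* RNA was at 0.668 and 2.13 TPM in *Shh*-/- pools 1 and 2, against 52.3 and 35.8 TPM in WT pools 4 and 6. The WT pools were less alike than for *Foxf2*, but the gap to the mutant pools was wider than the spread within either group. The log2 fold change of -4.28 (SE 0.37, 95% interval -5.22 to -3.33, limma adjusted p = 0.0383) was the 4th lowest of all tested genes, and the ratio of means was 31.5-fold. *Fendrr* extends over chr8:121054882-121083110 on the minus strand.

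*Foxl1*, a forkhead gene of the mesenchyme beneath the gut epithelium, was detected at 0.462 and 0.941 TPM in *Shh*-/- pools 1 and 2, against 8.43 and 7.26 TPM in WT pools 4 and 6. All 4 values are low, with about 11 and 53 reads in mutant and 433 and 389 reads in WT pools, and the groups did not overlap. The log2 fold change was -2.39 (SE 0.23, 95% interval -2.99 to -1.78, limma adjusted p = 0.0422), with an 11.2-fold lower mean. *Foxl1* (chr8:121127940-121130644) shares its start and strand with the annotated gene AC127554.1, so the division of reads between them is uncertain. AC127554.1 itself was at 0 and 0.0972 TPM in *Shh*-/- pools 1 and 2, against 1.12 and 0.448 TPM in WT pools 4 and 6.

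The calls for *Foxf2*, *Fendrr* and *Foxl1* depended on the pseudocount, the filter and each library. So did the number of calls over all tested genes. With a pseudocount of 0.1 in place of 1, the limma adjusted p was 0.067 for *Foxf2*, 0.0536 for *Fendrr* and 0.0593 for *Foxl1*, and with no filter on TPM it was 0.146 for each. No gene of 28524 was called in that unfiltered fit. Without *Shh*-/- pool 1, *Shh*-/- pool 2, WT pool 4 or WT pool 6, none of the 3 passed limma's adjusted threshold, with adjusted p between 0.0699 and 0.168. The direction was kept, and the unadjusted p stayed under 0.05 for all 6 tested members in each of these fits.

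*Foxf1*, which encodes the forkhead factor required for splanchnic mesoderm of gut and lung, was at 0.848 TPM in *Shh*-/- pool 1 and at 9.57 TPM in *Shh*-/- pool 2. WT pools 4 and 6 had 72.3 and 64.6 TPM. Both mutant pools lay below both WT pools, but they were 11.3-fold apart from each other, with about 18 and 480 reads. The mean was 13.1-fold lower in *Shh*-/- larynx and the log2 fold change of -3.97 was the 7th lowest of all tested genes. It did not pass the threshold (SE 0.81, 95% interval -6.06 to -1.88, limma adjusted p = 0.0976). *Foxf1* spans chr8:121084386-121088144 on the plus strand.

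*Osr1*, an odd-skipped gene expressed in early foregut and intermediate mesoderm, was at 11.5 and 21.8 TPM in *Shh*-/- pools 1 and 2, against 56.4 and 43.3 TPM in WT pools 4 and 6. The groups were separate, and *Osr1* kept a larger share of its WT level than the forkhead genes did, with a ratio of means of 2.99-fold. The log2 fold change of -1.58 did not pass the threshold (SE 0.32, 95% interval -2.40 to -0.75, limma adjusted p = 0.0966). Its position is chr12:9574442-9581499.

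*Barx1* had the opposite direction. It was at 18.9 and 20.5 TPM in *Shh*-/- pools 1 and 2, against 8.23 and 5.15 TPM in WT pools 4 and 6. The mutant pools were alike, with about 232 and 596 reads, and the WT pools had 219 and 143. The mean was 2.95-fold higher in *Shh*-/- larynx, with a log2 fold change of 1.46 that did not pass the threshold (SE 0.23, 95% interval 0.85 to 2.06, limma adjusted p = 0.0736). *Barx1* lies on chr13:48662998-48666507.

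*Osr2*, the odd-skipped paralog best known from palate and limb, was close to the limit of measurement at 0.462 and 0.916 TPM in *Shh*-/- pools 1 and 2 and 0.153 and 0.147 TPM in WT pools 4 and 6. Both mutant values exceeded both WT values, yet all 4 lay below 1 TPM and the gene was left out of the test. In a fit of 28524 genes without the filter, its log2 fold change was 0.54 (SE 0.17, limma adjusted p = 0.245), and no gene was called at all in that fit. *Osr2* is at chr15:35296098-35303304.

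**Figure D2:**
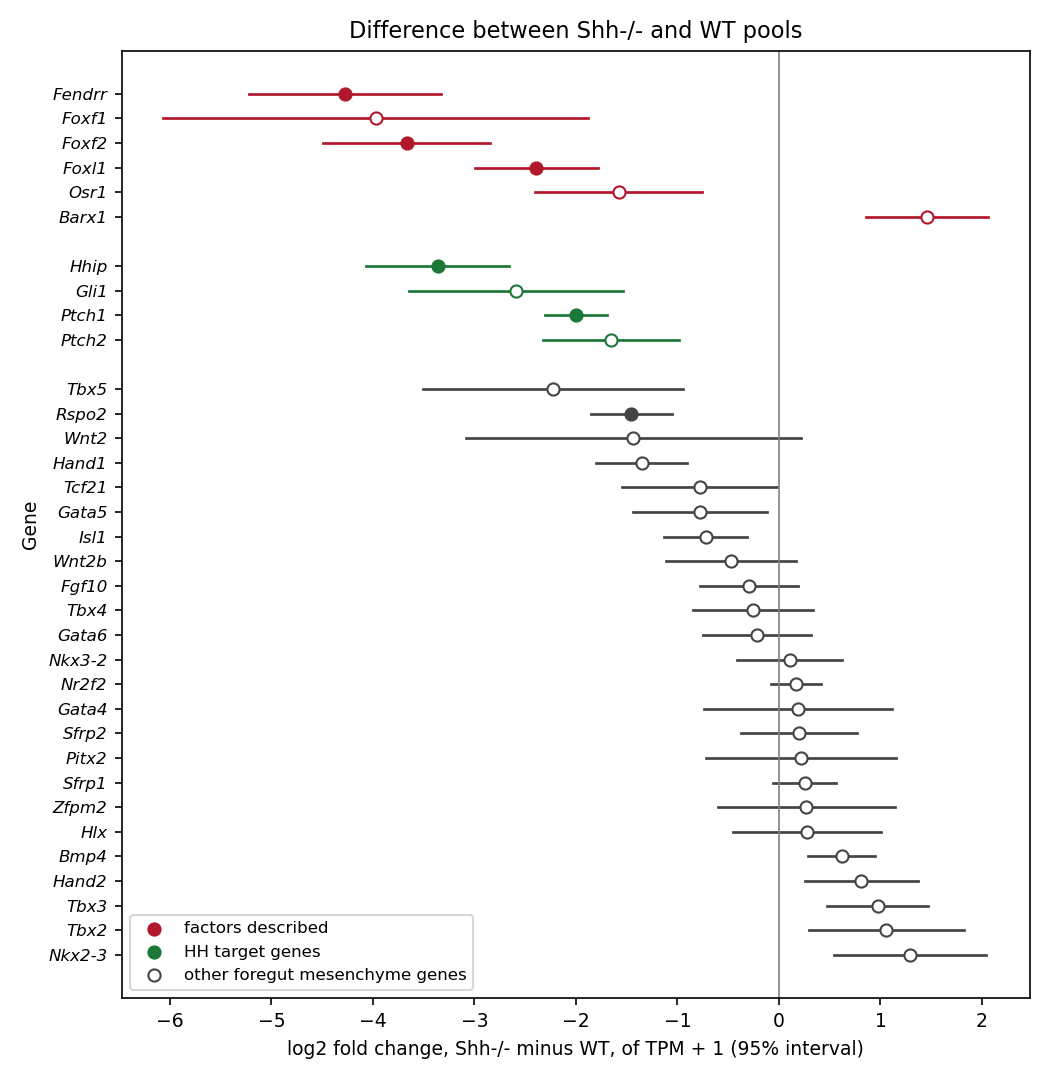
Log2 fold changes (*Shh*-/- minus WT) on the horizontal axis with 95% intervals from limma for the 6 tested members, the 4 HH targets and all 24 genes of the foregut mesenchyme list, with filled points for an adjusted p under 0.05. *Foxf2*, *Fendrr* and *Foxl1* are filled and lie between -4.28 and -2.39, while *Foxf1* has the widest interval of the members and *Barx1* lies above 0.

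The mutant pools differed from each other for most of the set. All 7 members were higher in *Shh*-/- pool 2 than in pool 1, whereas 41.9% of tested genes were. On the log2(TPM + 1) scale the difference was 2.52 for *Foxf1*, 0.91 for *Fendrr*, 0.86 for *Osr1* and 0.85 for *Foxf2*, beside a median absolute difference of 0.19 over all genes between these pools and 0.18 between the WT pools. The difference was 0.41 for *Foxl1*, 0.39 for *Osr2* and 0.11 for *Barx1*, which lay below both medians. *Foxf1* ranked 25th of 16972 genes by this difference. *Shh*-/- pool 1 had 18300000 aligned reads, as inferred from the coverage at 75 nt per read, and pool 2 had 41700000, while the WT pools had 37900000 and 39600000. The part of depth in these differences was not tested.

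**Figure D3:**
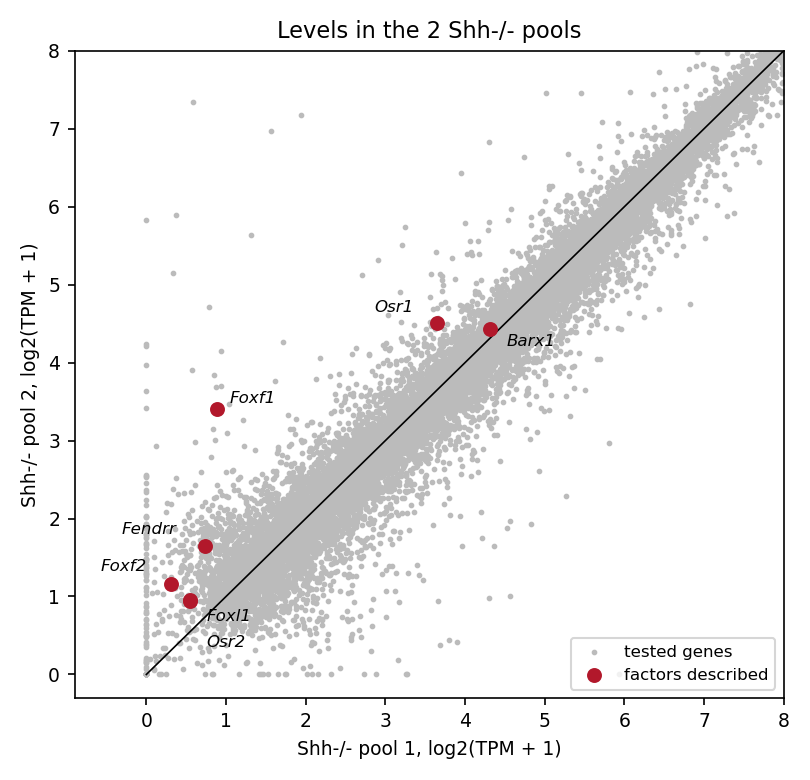
Log2(TPM + 1) of *Shh*-/- pool 1 (horizontal axis) against *Shh*-/- pool 2 (vertical axis) for all tested genes in grey and for the 7 members, *Osr2* included, in red, with a line of equality and axes that end at 8. All 7 members lie above the line, *Foxf1* farthest from it at 2.52, and the points of *Foxl1* and *Osr2* nearly coincide.

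Ratios between members within a library are free of scaling between libraries. *Foxf2* was present at 0.284 and 0.13 of the *Foxf1* level in *Shh*-/- pools 1 and 2 and at 0.281 and 0.31 in WT pools 4 and 6. The *Shh*-/- pool 1 value is near the WT values but rests on about 5 and 18 reads. *Fendrr* was at 0.788 and 0.223 of *Foxf1* in *Shh*-/- pools 1 and 2, and at 0.724 and 0.554 in WT pools 4 and 6. *Foxl1* to *Foxf1* was 0.544 and 0.0984 in *Shh*-/- pools 1 and 2, against 0.117 and 0.112 in WT. The *Shh*-/- pool 1 value rests on about 11 *Foxl1* and 18 *Foxf1* reads, and the *Fendrr* ratio of that pool on the same 18 *Foxf1* reads. *Barx1* to *Osr1* was higher in both mutant pools, at 1.64 and 0.942 in *Shh*-/- pools 1 and 2 and at 0.146 and 0.119 in WT pools 4 and 6.

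*Fendrr*, *Foxf1* and *Foxl1* lie in one cluster of chromosome 8, and the 39795 bases from the end of *Foxf1* to the start of *Foxl1* hold *Mthfsd* and *Foxc2*. *Mthfsd* was at 34.7 and 29.9 TPM in *Shh*-/- pools 1 and 2, against 31.8 and 32.9 TPM in WT pools 4 and 6, with overlapping groups. Its log2 fold change was -0.01 (95% interval -0.34 to 0.33, limma adjusted p = 0.98). *Foxc2*, a forkhead gene of paraxial and vascular mesoderm, was at 10.8 and 19.7 TPM in *Shh*-/- and 17.1 and 14.2 TPM in WT pools, with a log2 fold change of -0.08 (95% interval -0.85 to 0.69, limma adjusted p = 0.881). Of 32 other genes listed within 500 kb of the trio, 12 were tested and none was called by limma (1 had an unadjusted p under 0.05), with log2 fold changes from -0.18 to 0.89 and a lowest adjusted p of 0.17. The outer neighbours *Irf8* beside *Fendrr* and *Fbxo31* beside *Foxl1* had log2 fold changes of 0.34 and 0.32, with adjusted p of 0.348 and 0.275 by limma.

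**Figure D4:**
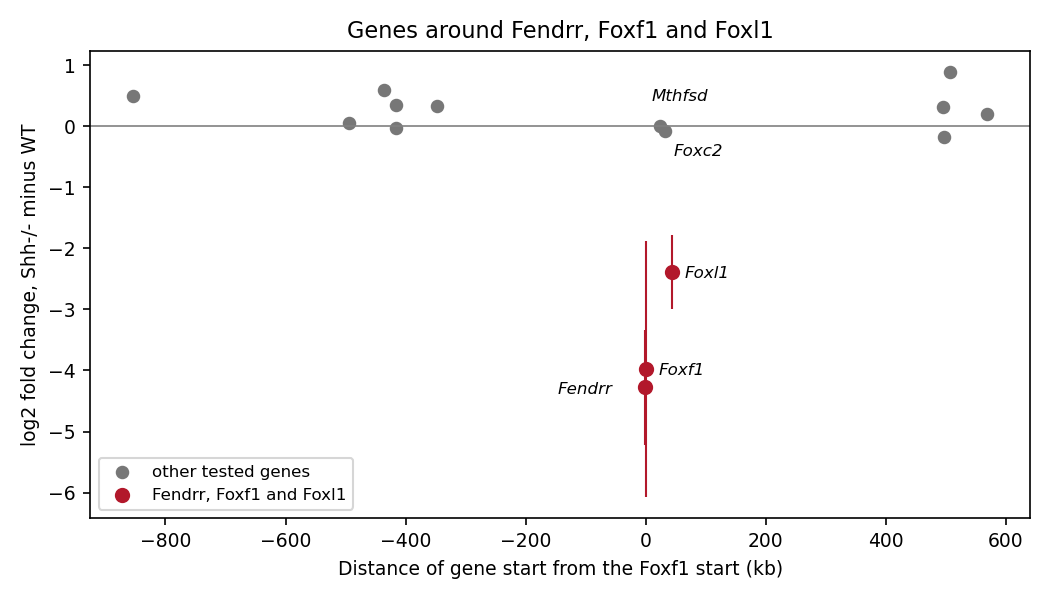
Log2 fold change (*Shh*-/- minus WT, vertical axis) of tested genes by the distance of their start from that of *Foxf1* in kb (horizontal axis), with 95% intervals from limma for the trio. A gene is included if any of its span lies within 500 kb of the trio, so some starts lie farther away. *Fendrr*, *Foxf1* and *Foxl1* lie between -4.28 and -2.39, whereas the other 12 tested genes lie between -0.18 and 0.89.

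On chromosome 13, the genes next to *Foxf2* were *1700018A04Rik*, which was listed at 0 in both *Shh*-/- pools, against 3.15 and 2.74 TPM in WT pools 4 and 6 (limma adjusted p = 0.0488), and *Foxc1*, a forkhead gene of head mesenchyme. *Foxc1* had a log2 fold change of -0.24 (95% interval -0.67 to 0.19, limma adjusted p = 0.396). The *Barx1* neighbours *Ptpdc1* and *Phf2* had log2 fold changes of 0.46 and 0.41, with limma adjusted p of 0.163 and 0.211. *Gm7099* beside *Osr1*, and *Stk3* and *Vps13b* beside *Osr2*, had log2 fold changes of -0.17, -0.29 and -0.28, with limma adjusted p of 0.571, 0.346 and 0.381. All 4 tested genes within 500 kb of *Foxf2* were lower (median -0.49 on the log2 scale), as were 41.7% of all tested genes. An unadjusted limma p under 0.05 was found for 2 of these neighbours, *1700018A04Rik* included, and for 1225 lower genes among all 16972. The other of these 2 was *Foxq1*, a forkhead gene named after its values were seen, at 1.42 and 1.56 TPM in *Shh*-/- and 3.41 and 2.90 TPM in WT pools (log2 fold change -0.74, SE 0.20, limma adjusted p = 0.135). Of the 11 genes tested around *Barx1*, 2 were lower and 2 had an unadjusted p under 0.05, with a median of 0.37 and no call by limma. *1700018A04Rik* was the only call among 30 tested genes within 500 kb of any member. Its call was lost when any 1 of the 4 pools was left out, with limma adjusted p of 0.109 to 0.17.

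The HH readouts were examined beside the members. *Shh* RNA was at 10.4 and 10.8 TPM in *Shh*-/- pools 1 and 2, against 23.7 and 42.1 TPM in WT pools 4 and 6 (log2 fold change -1.49, SE 0.28, limma adjusted p = 0.0895). The part of the gene that the null allele removes is not given in the sources used here, so its RNA level is an incomplete check of genotype. Among 4 HH targets, 2 fell and none rose by limma, and the median log2 fold change was -2.30. *Ptch1*, the receptor, was at 12.9 and 13.8 TPM in *Shh*-/-, against 57.8 and 55.1 TPM in WT pools (log2 fold change -2.0, SE 0.12, limma adjusted p = 0.0319). *Hhip*, which encodes a ligand-binding inhibitor, was at 0.149 and 0.635 TPM in *Shh*-/-, against 11.3 and 15.2 TPM in WT pools (log2 fold change -3.36, SE 0.27, limma adjusted p = 0.0323). Neither call held when any 1 of the 4 pools was left out, with limma adjusted p of 0.0699 to 0.132 for both genes.

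Expression profiles over the 4 libraries were compared by the Euclidean distance between centred log2(TPM + 1) values, as a description with no test. The genes nearest to *Foxf1* were *Gm5127*, *Hbb-bh0*, *Gm43050*, *Saa2* and *Hhip*, at distances of 1.21, 1.43, 1.54, 1.58 and 1.59. *Hbb-bh0* is a pseudogene of the beta-globin cluster, whose members can share reads. Of the members, *Fendrr* at 1.21 and *Foxf2* at 1.22 were as close to *Foxf1* as these, *Foxl1* at 2.17 and *Osr1* at 2.67 were farther, and *Barx1* was farthest at 5.70. The mean profile of the 6 tested members includes *Barx1*, which went the opposite way. Nearest to this mean profile was the HH target *Gli1* at 0.25, followed by *D030025E07Rik* at 0.33, *Tbx5* at 0.39, *Snord93* at 0.40 and *Gm43050* at 0.51. *Gli1*, which encodes a transcription factor of the pathway, was at 3.20 and 8.45 TPM in *Shh*-/- pools 1 and 2, against 41.7 and 32.9 TPM in WT pools 4 and 6. *Tbx5*, a T-box factor of lung and heart mesoderm, was at 1.22 and 4.71 TPM in *Shh*-/-, against 19.4 and 12.6 TPM in WT pools. In both, as in the members, *Shh*-/- pool 2 was above pool 1. The distance used all 4 libraries, so this order was part of how both genes were found.

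Of a list of 24 other foregut mesenchyme genes, 1 fell and none rose by limma. The median log2 fold change of the list was 0.14, and 11 genes were lower and 13 higher, or 15 lower and 9 higher when GC content and transcript length were corrected for. At an unadjusted limma p under 0.05, 6 of the 24 were lower and 5 higher, beside 1225 lower and 2977 higher of all 16972 tested genes. *Rspo2*, which encodes a secreted enhancer of WNT signalling, was at 10.8 and 8.91 TPM in *Shh*-/- pools 1 and 2, against 29.97 and 27.2 TPM in WT pools 4 and 6 (log2 fold change -1.45, SE 0.15, limma adjusted p = 0.0463). *Hand1*, a basic helix-loop-helix factor of lateral mesoderm, was at 6.67 and 5.42 TPM in *Shh*-/-, against 18.1 and 15.8 TPM in WT pools (log2 fold change -1.35, SE 0.17, limma adjusted p = 0.0595). Both genes were higher in *Shh*-/- pool 1 than in pool 2, unlike the 7 members. The order of the mutant pools varied over the list. A higher level in *Shh*-/- pool 2 was also found for 41.9% of all tested genes, and was thus not particular to the members. *Rspo2* was not called when any 1 of the 4 pools was left out, with limma adjusted p of 0.11 to 0.174.

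Among the 41 other forkhead genes listed, 29 were tested, and their median log2 fold change was -0.23. *Foxa2*, a forkhead gene of foregut epithelium and floor plate, had a log2 fold change of -2.13 (SE 0.29) with a limma adjusted p of 0.0602. *Foxf1*, *Foxf2*, *Foxl1* and the non-coding *Fendrr* each had a lower log2 fold change than *Foxa2*. *Foxl1* was close to *Foxa2*, however, at -2.39 (SE 0.23). The order of these genes reversed with FPKM (*Foxl1* -1.88, *Foxa2* -2.02) and without WT pool 4 (*Foxl1* -2.29, *Foxa2* -2.35). It was kept in the other settings that tested both. The interval of *Foxf1*, -6.06 to -1.88, also held the *Foxa2* value.

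Markers of the cell types that the dissected tissue could hold differed between the groups as well. The 10 general mesenchyme markers summed to 1803 to 1935 TPM in *Shh*-/- and 1290 to 1292 TPM in WT pools, with *Twist1* called higher by limma and none called lower (by unadjusted p under 0.05, 6 were higher and 0 lower). The *Twist1* call was lost when any 1 of the 4 pools was left out (limma adjusted p 0.0699 to 0.132). Of these, *Pdgfra*, the mesenchymal PDGF receptor, was at 106 and 105 TPM in *Shh*-/-, against 82.6 and 103 TPM in WT pools. Its log2 fold change was 0.19 (SE 0.14, limma adjusted p = 0.416). Both mutant values lay above both WT values, as for 38% of tested genes. The 8 foregut epithelium markers summed to 583 to 658 TPM and 605 to 606 TPM, with none called by limma (2 lower and 1 higher at an unadjusted p under 0.05). Of the 6 neuron markers, *Stmn2*, *Tubb3*, *Prph* and *Elavl3* were called higher by limma and the sums were 363 to 398 TPM against 67.7 to 91.8 TPM. Of the 5 cardiac muscle markers tested, *Myh6* and *Myh7* were called higher, with 138 to 196 TPM against 47.4 to 56.3 TPM over the list of 6, of which 1 lay under 1 TPM in every pool. Of the 6 endothelium markers, *Tie1* was called higher, with 287 to 328 TPM against 183 to 191 TPM. The 6 neural crest markers summed to 122 to 131 TPM against 75.1 to 91.1 TPM, and the 5 blood markers to 9161 to 14248 TPM against 12778 to 14924 TPM, with none called in either list by limma (3 neural crest and 0 blood markers at an unadjusted p under 0.05). The part of tissue composition in the levels of the 7 genes was not tested.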

How the data were processed

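Larynx RNA of 4 pools was sequenced single-end from poly(A)-selected, strand-specific libraries. Per the labels and the study's methods, the authors aligned reads to mm10 with HISAT2 (version 2.1.0) and assembled genes with StringTie (version 1.3.6). The deposited tables give each gene's read coverage, with no normalization between libraries. The deposited FPKM values scale coverage to library size, and the deposited TPM values scale FPKM to a fixed sum per library. An exact 0 in such a table can be a failed estimate.

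TPM was summed per gene identifier, and genes with a mean of at least 1 TPM were kept. Log2(TPM + 1) was fitted with limma (version 3.58.1, R 4.3.3), with a variance trend and Benjamini-Hochberg adjustment at 0.05. Intervals are at 95% confidence. An exact permutation test of 2 against 2 pools cannot go below 0.33 and was not used. The script was tested on simulated data.

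The 7 members and all gene lists were chosen with earlier results of these data known. Genes named besides the members were Shh, HH targets, genes of each list past the threshold (at most 4 per direction) or, where fewer than 2 passed, those 2 of lowest adjusted p, tested neighbours directly beside a member, and the 5 genes nearest to the Foxf1 profile and to the members' mean profile. *Pdgfra* was added after its values were seen, and the marker lists are given by calls and sums only. One single-gene result from the list of other forkhead genes, and that list's counts of calls, are not reported here. Alternatives comprised pseudocount, filter, scaling, FPKM, variance options, leaving out each pool and, chosen after seeing the data, a correction for GC content and length.

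Aligned reads ranged from 18300000 to 41700000 per pool. Read length was inferred as 75 nt from coverage, so read numbers are approximate. P-values measure the spread between pools of 3 embryonic larynxes, with the variance of each gene drawn toward the trend over all tested genes.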

Additional observations from a re-analysis of the deposited data

How the results depend on the processing

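Of 13 alternatives, none reversed a tested member; the cause of calls lost or gained was not tested. Fold changes over these settings ran from -5.23 to -2.71 for *Foxf1*, -4.91 to -3.05 for *Foxf2*, -5.05 to -3.78 for *Fendrr*, -3.37 to -1.88 for *Foxl1*, -2.01 to -1.15 for *Osr1* and 1.08 to 1.75 for *Barx1* on the log2 scale. *Foxf1*, *Osr1* and *Barx1* passed the threshold in none of them, with limma adjusted p of 0.0639 to 0.341, 0.0861 to 0.299 and 0.0714 to 0.216. With a pseudocount of 0.1, 0 members were called lower by limma (5 at an unadjusted p under 0.05), the median of the members was -3.94, 0 genes of the foregut mesenchyme list were called lower (6 unadjusted), and 16 genes in all were called lower and 53 higher. With no filter on TPM, these were 0 members (5 unadjusted), a median of -2.39, 0 list genes (5 unadjusted), and 0 genes lower and 0 higher in all (1639 and 3372 unadjusted). That median covered *Osr2* as well, and the fold changes of the other members were unchanged. With a mean of at least 5 TPM, *Foxl1* was not tested, the median was -3.67 and 63 genes were called higher. The median was -2.46 with FPKM and -3.41 with the GC content and length correction. The list had 2 genes called lower, *Hand1* and *Rspo2*, with quantile normalization, median centring and the GC content and length correction, and 0 by limma without a variance trend (5 unadjusted). Median centring moved the median of all genes from 0.08 to -0.05, and the members kept their directions relative to it.

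Leaving out 1 pool gave 0 members called lower in each of the 4 fits (5 unadjusted), medians of -3.34 to -2.45, 0 list genes (4 to 7 unadjusted), 0 to 12 genes lower in all and 0 to 4 higher. The lone sample of the reduced group is assumed to vary like the other group. Among named genes that were not called, the sign changed for *Mthfsd* without *Shh*-/- pool 2 or WT pool 6 (0.10 and 0.02, range -0.11 to 0.10 over the 4 fits that leave out 1 pool), for *Foxc2* without *Shh*-/- pool 1 or WT pool 4 (0.32 and 0.05, range -0.48 to 0.32), and with the GC content and length correction for *Fbxo31* (-0.14), *Phf2* (-0.0052) and *Gm7099* (0.12). No paired analysis was possible because the groups share no replicate numbers. Depth limits *Foxf1*, *Foxf2*, *Fendrr*, *Foxl1* and *Osr2*, which lay below 1 TPM in at least 1 pool.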

Other observations

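*Gm43050*, which was among the genes nearest to both the *Foxf1* profile and the mean profile of the members, is an annotated long intergenic RNA at chr5:119828448-119831920 (mm10), 747 bases from *Tbx5* at chr5:119832668-119885219. It was listed at 0 in *Shh*-/- pool 1 and was at 1.10 TPM in *Shh*-/- pool 2, 9.12 TPM in WT pool 4 and 9.55 TPM in WT pool 6 (limma adjusted p = 0.0615). This pair of neighbouring genes was noted after the values were seen.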
